A study of Drosophila melanogaster with 51 samples.

Results

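Peaks of HP1 that lie inside gene bodies on the euchromatic chromosome arms of Drosophila melanogaster were described, in the larval wing imaginal disc, the epithelium from which the adult wing grows. A peak was taken if its middle base lay in the arms, if it touched a RefSeq gene body by at least 1 bp, and if it lay more than 200 bp from every annotated gene start and end. The rule used positions alone. It found 289 internal peaks, 47.2% of the 612 HP1 peaks of the arms, out of 1435 HP1 peaks in all. Of the other arm peaks, 203 lay near gene ends and 120 outside genes. Every internal peak lay wholly within its host gene.

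HP1a is a small chromatin protein whose chromodomain binds histone H3 methylated at lysine 9, and it is best known for packing the repeat-rich DNA around centromeres. It also binds sites on the arms, among them the bodies of active genes, where it can be recruited with little of that mark. Introns of long developmental genes often carry enhancers and further promoters, so a peak inside a gene need not concern the gene that surrounds it.

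The profiles were made by CUT&RUN, which sequences the DNA that an antibody-tethered nuclease cuts loose, from at least 20 discs of wandering third-instar females per library, raised at 25 °C. The series holds 51 libraries in 18 groups, but only peak lists with no value of a single library were analysed, so the depth of single libraries is unknown and no spread between replicates could be measured. All HP1 peak names carry ywdf, sup and merge. The labels do not say what ywdf stands for. In the library titles sup occurs only among anti-GFP libraries, so which libraries gave the HP1 list is not settled. The anti-GFP libraries are labelled GFP-HP1a/GFP-HP1a, GFP-HP1a/+, CrGFP-HP1a, CrGFP-HP1chromo and yw. The anti-HP1a libraries of the series are labelled HP1a-control (from Df(2L)BSC228 mothers and yw fathers), HP1a-chromo (from such mothers and fathers with the HP1achromo allele), HWT and K9R. HWT and K9R larvae lack the native histone gene cluster (∆HisC, with twi-Gal4 and UAS-2xEYFP) and live on a transgene of wild-type or lysine-to-arginine histone H3. The H3K9me3 list holds 2245 peaks, 2047 with names of an HWT library and 198 of ywdf. The background list holds 500 regions of an anti-GFP profile named yw, whose titles read yw while the genotype label reads GFP-HP1a/+. HP1 and H3K9me3 were thus called mostly in different sources.

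Many listed intervals are parts of a longer call. The 289 internal peaks carry 250 call names. Of these calls, 215 gave a single internal peak and 35 gave several, which account for 74 peaks, with at most 3 from a call. In 14 of the 250 calls another part lay near a gene end or outside genes. For 80.6% of the internal peaks the recorded summit does not fall inside the interval. Fold enrichment and q-value, both the authors' values, therefore belong to the call and not to the interval.

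Internal peaks were short, with a median width of 338 bp (quartiles 237 and 527 bp) and a total of 124 kb. Peaks near gene ends had a median width of 439 bp (251.5 and 695 bp) and peaks outside genes 311 bp (240.5 and 492.75 bp). The rule itself favours narrow peaks, because a wide peak is more likely to come close to a gene end. The median fold enrichment was 5.40 for internal peaks (quartiles 3.93 and 8.01), 6.30 near gene ends (4.44 and 8.86) and 6.54 outside genes (4.40 and 9.13). The quartile ranges of the 3 classes overlap broadly. The smallest −log10 q-value of an internal peak was 5.22. In 8 internal peaks the interval was under 100 bp, down to 1 bp in Ugt50B3 and 9 bp in bves, and these short ends had fold enrichments of 2.86 to 4.20.

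**Figure D1:**
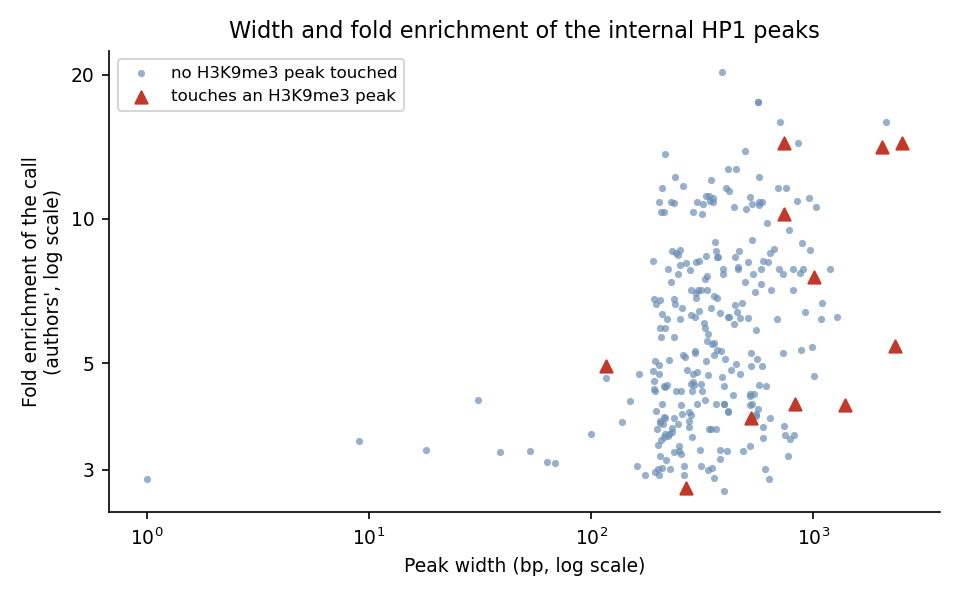
Width in bp (x axis, log scale) against the authors' fold enrichment of the call (y axis, log scale) of each of the 289 internal HP1 peaks. Triangles mark the 11 peaks that touched an H3K9me3 peak, which had a median width of 824 bp, and circles the other 278, with a median of 333 bp.

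Gene bodies more than 200 bp from any gene end make up 66.3% of the arms, and the internal peaks there had a density of 3.79 per Mb. Outside genes the density was 4.36 per Mb, over 23.9% of the arms. Within 200 bp of gene ends, 9.77% of the arms, it was 18.1 per Mb, although a peak is put in this class when any of its bases comes that close. Internal peaks are thus the commonest class by number and, over the arms pooled, the sparsest per base. On 2R and X the internal density, 6.61 and 3.81 per Mb, was above that outside genes, 5.31 and 2.68 per Mb. On 2R, however, 24 of the 88 internal peaks lay within 1 Mb of the pericentric boundary. Beyond that Mb the internal density of 2R was 5.01 per Mb, and the matching density outside genes was not computed.

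The internal peaks lay in 217 host genes, of which 204 encode proteins, 11 are lncRNAs and 2 antisense RNAs. Because 28 peaks lay in more than 1 gene, each peak was also given a single host, the shortest protein-coding gene that contains it, or another gene where there was none. This gave 198 hosts, protein-coding for 281 peaks and lncRNAs for 8. These hosts were long genes, with a median length of 22.8 kb (quartiles 9.28 and 47.1 kb). Over all 13631 protein-coding genes of the arms the median was 2.14 kb (1.17 and 4.83 kb). The rule works against short genes, because a whole peak must clear every gene end by more than 200 bp. With a distance of 0 bp the median length of hosts was 18.04 kb, and with 1000 bp it was 30.7 kb. Of the internal peaks, 61.6% had a host of 20 kb or longer.

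Over all protein-coding arm genes, 204 held an internal peak, or 1.5%. The share was higher in longer genes, from 3 of 6444 genes under 2 kb and 17 of 3873 genes of 2 to 5 kb (0.439%, exact 95% interval 0.256 to 0.702) to 64 of 671 genes of 20 to 50 kb (9.54%, 7.42 to 12.02). It reached 17 of 67 genes over 100 kb (25.4%, 15.5 to 37.5). The density per Mb of body that the rule allows was 0.650 in genes under 2 kb, 2.00 in those of 2 to 5 kb, and between 3.75 and 4.54 in the 4 classes from 5 to 100 kb. In genes over 100 kb it was 2.88. Each peak was counted once, for its single host, while bases shared by overlapping genes were counted for each gene. This lowers the density of genes that hold shorter genes. Single bases were counted, although a whole peak must clear every gene end by more than 200 bp. Short genes thus had less room for a peak than was counted, which lowers their density. From 5 kb upwards, then, the larger share of long genes went with more bases rather than with a higher density of peaks by this count.

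**Figure D2:**
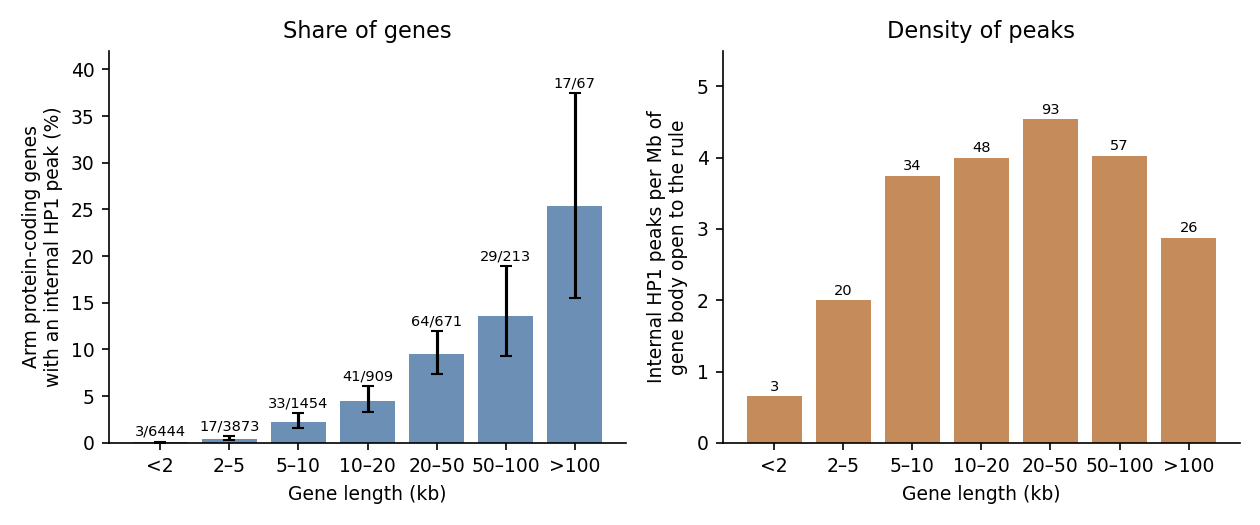
Arm protein-coding genes by length class. Left, the percentage that hold an internal HP1 peak, with exact binomial 95% intervals and host and gene counts above the bars. Right, internal peaks per Mb of gene body more than 200 bp from any gene end, with the number of peaks above the bars. The share climbs to 25.4% over 100 kb, while the density is highest at 4.54 per Mb for 20 to 50 kb.

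In the classes from 5 to 100 kb hosts had more annotated transcripts by the median, and in both classes under 5 kb the medians of hosts and other genes were equal. Among genes of 5 to 10 kb the median was 4 RefSeq transcripts in the 33 hosts and 2 in the other genes, and among genes of 20 kb and longer it was 5 in 110 hosts and 4 in 841 other genes. Above 100 kb the order was the opposite, with 5 in hosts and 7 in the others. These hosts of 20 kb and longer were also longer than the other genes of that class, with medians of 43.7 and 36.0 kb.

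Between the ends and the middle of their hosts the internal peaks were spread almost evenly. The gene table gives no strand, so the 5′ and 3′ ends of a host could not be told apart. Positions were therefore measured from the nearest end, and a lean towards the 5′ or the 3′ side would go unseen. The share of peaks whose middle lay within 20% of the host's length from an end was 36.7% (106 of 289, exact 95% interval 31.1 to 42.5). If each peak could lie anywhere in its host that the rule allows, the share would be 36.0%. Within 10% of the length from an end the observed share was 18.7% (14.4 to 23.7) and the allowed share 15.2%, and in the central 20% the shares were 19.7% (15.3 to 24.8) and 22.0%. For hosts under 20 kb the outer share was 39.6% (30.5 to 49.4) against 31.7% allowed, and for longer hosts 34.8% (27.9 to 42.3) against 38.6%. In each of these comparisons the allowed share lies inside the interval of the observed one. The middle of a peak lay a median of 5.76 kb from the nearest end of its host. In 42 peaks this distance was under 1 kb and in 48 it was at least 20 kb. In 111 peaks the end of some other gene was nearer than either end of the host.

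Some hosts with an internal peak also held an HP1 peak at their own start or end. This was so in 18 of 204 protein-coding hosts (8.82%, exact 95% interval 5.31 to 13.6), against 194 of 13427 genes without an internal peak (1.44%, 1.25 to 1.66). Among genes of 20 kb and longer the shares were 11 of 110 (exact 95% interval 5.10 to 17.2%) and 15 of 841 (1.78%, 1.00 to 2.92). In 7 of the 18 hosts the peak at the end belonged to the same call as an internal peak, and in 11 it was a call of its own. The latter include jing, br, fs(1)h, sbb and Tis11, while nej and grh are among the former. At the start of the 2R arm, stw, TpnC4, scaf and CG30440 are also among the latter, and Ugt50B3 among the former. The shares without that stretch were not computed.

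Most hosts held a single internal peak: 170 of the 217 host genes held 1, 23 held 2 and 24 held 3 or more. The largest numbers are in genes of different kinds. Next to the pericentric end of 2R, Ugt50B3, a UDP-glycosyltransferase gene, held 15 internal peaks from 9 calls over 41.1 kb. Of these, 4 lay in TpnC4, a troponin C gene nested within it. Their fold enrichments ran from 2.75 to 17.5. In the same stretch stw, a laccase gene, held 4 peaks with fold enrichments of 2.92 to 4.11.

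Away from that stretch, tara and shn had the most internal peaks, with 7 each. The gene tara encodes a nuclear regulator of the Trithorax group that also acts in the cell cycle, and its body spans 3R 16225651 to 16260329. Its peaks came from 4 calls and covered 5415 bp, or 15.6% of the body. The strongest call, of fold enrichment 15.9, gave parts of 708 and 2115 bp at 25.7% and 30.4% of the way from the end with the lower coordinate. Parts of another call, of 8.60, lay at 44.2% and 47.9%, those of a call of 7.12 at 79.9% and 83.8%, and a single peak of 4.98 at 20.4%. The peaks of tara thus form separate groups within a body of 34.7 kb.

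The gene shn encodes a large zinc-finger protein that acts in Dpp signalling, the BMP pathway of the fly. Its 7 peaks were narrow, from 206 to 517 bp, and lay over 27.2 kb in the middle of a 58.3 kb body (2R 11159086 to 11217394). They came from 5 calls. The highest fold enrichment, 11.1, was at 74.8% of the body, and a call of 10.3 gave 3 parts between 37.5% and 44.1%. The lowest, 3.29, was at 28.9%. In all, 3.92% of the body was covered.

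Among the other hosts with several peaks, signalling genes were arr, Delta and Tgi. The Wingless co-receptor gene arr held 5 peaks of fold enrichment 2.88 to 10.7 over 13.03 kb, 11.0% of its body. The Notch ligand gene Delta held 3, over 12.95 kb, with values of 7.88 for a pair from 1 call and 6.21 for the other. Tgi, whose product acts with Scalloped to limit growth, held 3 peaks, of 3.01, 4.09 and 11.6. In both arr and Tgi the strongest peak was a call of its own.

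Several of the others encode nuclear proteins. The gene jing, which encodes a zinc-finger protein, held 5 peaks with fold enrichments of 7.67 to 13.9, spread over 48.9 kb of its 120 kb. Peaks of tna, which encodes a SUMO ligase-like protein linked to Brahma chromatin remodelling, were packed closely. Its 4 peaks, of 7.67 and 11.6, lay within 5.43 kb near the middle of the gene, and covered 43.8% of that span. The cell cycle factor gene E2f1 held 4 peaks over 7.62 kb, 3 of them from a call of 10.9 and 1 of 4.81. In Bx, which encodes a LIM-only protein that restrains Apterous in the wing, 3 parts of a call of 6.26 lay side by side, and another peak of 3.65 lay apart. Tet, the fly homologue of the TET dioxygenases, held 4 weaker peaks, of 3.56 to 5.93, over 44.0 kb. The BTB protein gene psq had a 2036 bp peak of 14.2 and a pair of 5.25. The zinc-finger genes chn and bowl, the epithelial regulator gene grh and the co-repressor gene Smr held 3 peaks each, with highest values of 8.67, 6.67, 8.49 and 7.12. The remaining hosts with 3 or more were HmgZ and HmgD, scaf, CG1677, and the long non-coding genes lncRNA:CR44833 (4 peaks) and lncRNA:CR44357.

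**Figure D3:**
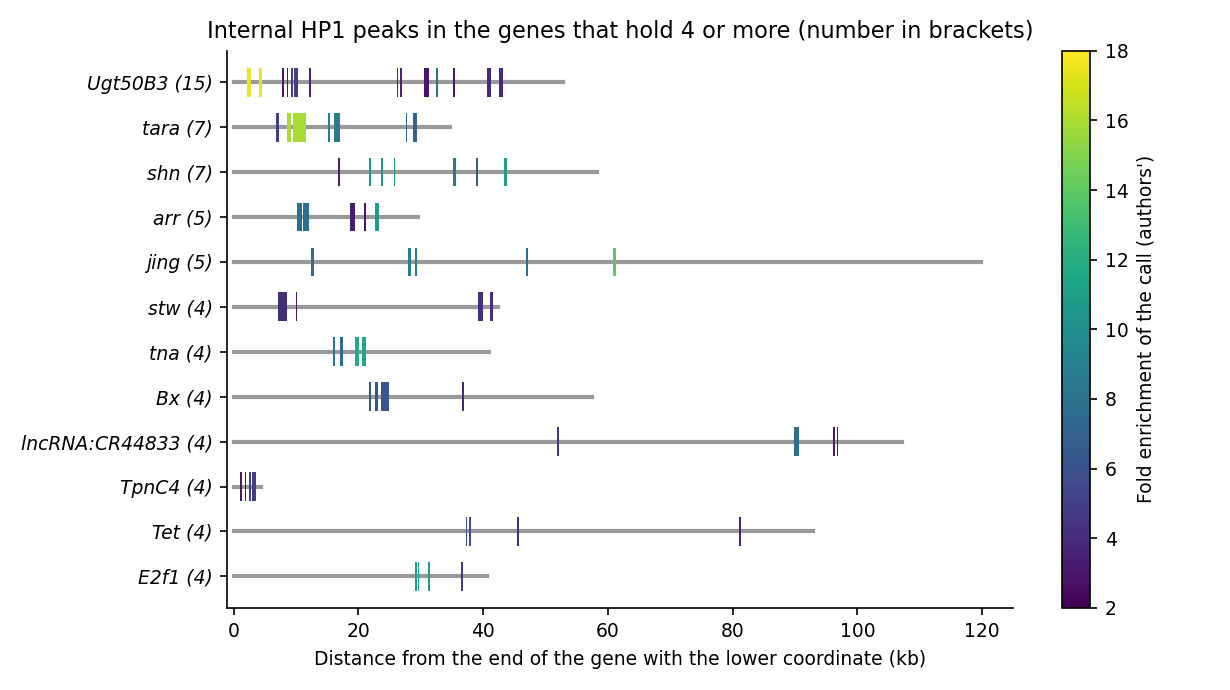
Bodies of the host genes with 4 or more internal HP1 peaks, drawn to scale in kb from the end with the lower coordinate (strand not shown). Each bar is a peak, drawn at least 0.25 kb wide and coloured by the authors' fold enrichment of its call, and the number of peaks is in brackets. Peaks of tna lie within 5.43 kb, those of jing over 48.9 kb.

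By fold enrichment the first place went to nej, which encodes the histone acetyltransferase CBP. Its 390 bp peak at X 9685945 to 9686334 belonged to a call of 20.3, of which another part lay near a gene end. Behind Ugt50B3, tara and HmgZ followed psq and jing with the values given above. Close to them was Cdk4, a cyclin-dependent kinase gene of 5.98 kb with peaks of 13.6 and 7.49. The widest internal peaks were 2507 bp in HmgZ, 2333 bp in Tis11, 2115 bp in tara, 2036 bp in psq and 1388 bp in stw. The annotated bodies of HmgZ and HmgD, which encode HMG-box chromosomal proteins, overlap, so that their 3 peaks, all of a call of 14.4, cannot be given to either. By bases under internal peaks the order was Ugt50B3 (5473 bp), tara, HmgZ and HmgD (4092 bp each), arr (3255 bp), Tis11 (2954 bp), psq (2856 bp), stw (2783 bp), tna (2374 bp) and Bx (2338 bp).

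Internal peaks covered little of most hosts, with a median of 2.40% of the body (quartiles 0.847 and 5.09%), and at least 10% in 28 of 217. Among the 198 single hosts the shortest were lncRNA:CR46113 (794 bp), CG42806 (803 bp), Gadd45, a stress response gene (1495 bp), Su(var)205, the gene of HP1a itself (1497 bp), and CG17768 (2007 bp). In Su(var)205 a 990 bp peak of fold enrichment 5.40 covered 66.1% of the body, the highest share among all 217. The longest of the 198 were pum, a translational repressor gene (171 kb), SKIP (162 kb), mgl, an endocytic receptor gene (142 kb), Ptp61F, a tyrosine phosphatase gene (133 kb), and hth (132 kb). In these 5 the covered share was 0.0683 to 0.537%.

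Host genes were then grouped by function, in lists written from textbook roles with earlier results of these data known. Some members had already been named as carrying HP1, so the count of long genes is also given without those genes where this changes it. Long genes are more often hosts, so the lists were compared over genes of 20 kb and longer, of which 110 of 951 held an internal peak, or 11.6%. Under 20 kb the share was 0.741%, and over genes of any length 1.5%. No test was made, since the lists were chosen with results in view. Leaving out the genes named earlier takes 110 of 951 to 93 of 934, so every long gene left out was a host. Counts without them can only fall, and cannot tell whether a list stands above the background.

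Over genes of 20 kb and longer, chromatin regulators held internal peaks most often, in 6 of 10 (60.0%, exact 95% interval 26.2 to 87.8). At any length 10 of 48 chromatin regulators were hosts. Besides tara and nej these were osa, a subunit gene of the Brahma complex (10.8), Sin3A, a co-repressor scaffold gene (7.94), and wde, a partner of an H3K9 methyltransferase (7.70). The others were gro, the Groucho co-repressor gene (6.21), Su(var)205, skd, a Mediator kinase module gene (5.30), the BET protein gene fs(1)h (3.95) and the methyltransferase gene trx (3.86). Values in brackets are the highest fold enrichment in the gene. Without the genes named earlier the long-gene count was 5 of 9, over a background that then was 9.96%. At any length the share of chromatin regulators, 20.8%, was close to those of zinc-finger and BTB factors, 20.4%, and of the signalling list, 19.0%.

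Genes of the Wingless, Hedgehog, Dpp, EGFR, Notch and Hippo pathways were hosts in 9 of 24 of 20 kb and longer (37.5%, 18.8 to 59.4) and in 12 of 63 of any length. For Wingless these were arr, the receptor gene fz2 (12.7) and the feedback inhibitor gene nkd (9.50). For Notch they were the receptor gene N (7.03), its co-activator gene mam (7.40) and numb (6.20), whose product inhibits the receptor. For Hippo they were sd, the DNA-binding partner of Yorkie (12.2), and the upstream regulators ex (8.91) and ft (7.09). The Hedgehog receptor gene ptc had 5.205, the inhibitory Smad gene Dad 7.59 and the receptor gene Egfr 7.56. Ligand genes of the list held none, although Delta, not in the list, did. Without the genes named earlier the long-gene count was 7 of 22, or 31.8%.

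Zinc-finger and BTB transcription factors were hosts in 7 of 20 long genes (35.0%, 15.4 to 59.2) and 10 of 49 in all, and together held 30 peaks. Besides shn, jing, chn, psq, tna and bowl these were Trl (8.13), crol (7.85), br (6.03) and fru (4.32). Trl is the gene of GAGA factor, and br is an ecdysone response gene. The peak of Trl also lies in the nested CG42507. The list also counts tna, whose product was described above as SUMO ligase-like, with 4 of the 30 peaks. Without the genes named earlier, all of them hosts, the long-gene count was 2 of 15, or 13.3%, a fall fixed by what was left out. Homeodomain genes were hosts in 4 of 19 (21.1%, 6.05 to 45.6), ct, hth, Antp and inv, with low values of 3.10 to 5.15, and in 0 of 15 without the genes named earlier. A list of bHLH, bZIP, T-box, Sox, ETS, nuclear receptor and other transcription factors had 5 of 23 (21.7%, 7.46 to 43.7). These were the ETS genes Eip74EF (11.1) and aop (7.85), the bZIP gene vri (10.7), the nuclear receptor gene Eip78C (10.7) and the T-box gene bi (3.71). Without the genes named earlier the count was 4 of 22, or 18.2%. RNA-binding protein genes had 5 of 24 (20.8%, 7.13 to 42.2), with brat (11.4) and Tis11 (9.82) highest, and 4 of 23 (17.4%) without the genes named earlier.

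Other lists of long genes held few internal peaks. Of 44 cell adhesion and axon guidance genes of 20 kb and longer, with a median length of 44.1 kb over the whole list, 1 was a host (2.27%, 0.0575 to 12.02). This was hbs, an adhesion gene of myoblast fusion, at 4.09. Ion channel and synaptic protein genes had 1 host of 25 (4%, 0.101 to 20.4), nAChRalpha3 at 5.87. No internal peak lay in 86 ribosomal protein genes or in 176 olfactory, gustatory and ionotropic receptor genes, all of them under 20 kb, where the share over all genes is 0.741%, so a count of 0 is near the background. The intervals of the adhesion and channel lists both contain the 11.6% of all long genes.

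**Figure D4:**
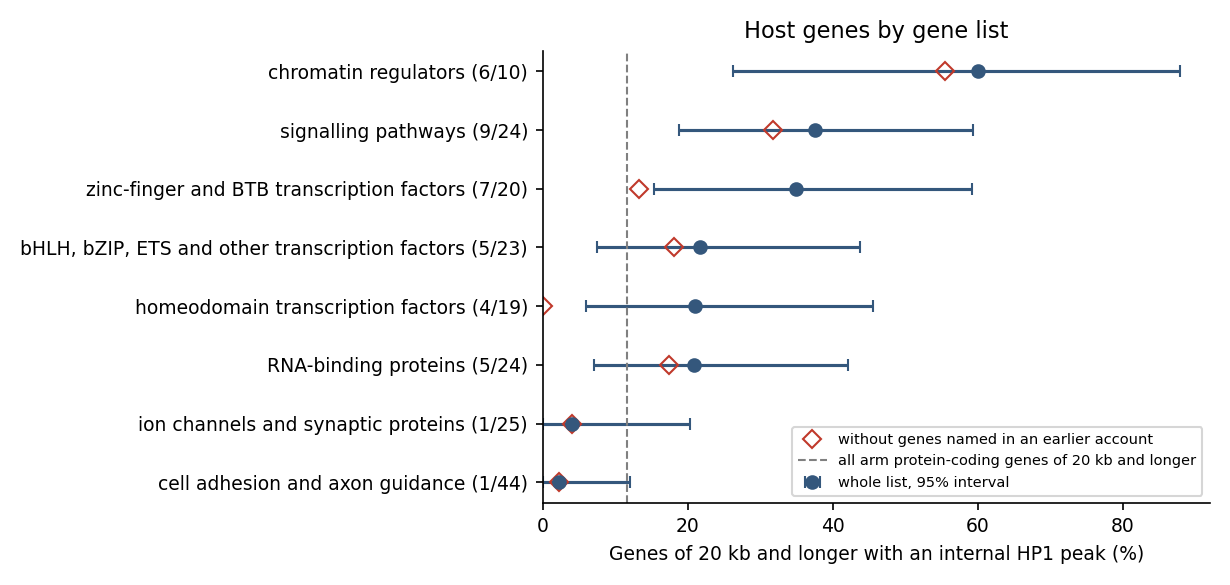
Percentage of genes of 20 kb and longer that hold an internal HP1 peak (x axis), by gene list, with host and gene counts in brackets. Circles with bars are whole lists with exact binomial 95% intervals, diamonds the lists without genes named in an earlier account, and the dashed line the 11.6% of all 951 long genes. Chromatin regulators are at 60.0% and cell adhesion and axon guidance genes at 2.27%. The long genes left out for the diamonds were all hosts.

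Some internal peaks had neighbours, and parts of 1 call were counted as neighbours too. The matching share of other arm HP1 peaks was not measured, so clustering cannot be called particular to internal peaks. Joined where the gap was at most 10 kb, 122 of the 289 peaks (42.2%) fell into 43 clusters of 2 or more, and 167 stood alone. Of the clusters, 41 lay within a single host, 26 were pairs, and 17 held parts of 1 call only. The largest were 8 peaks of Ugt50B3 over 17.0 kb and 7 in Ugt50B3 and TpnC4 over 10.2 kb, then 7 in shn over 27.2 kb, 5 in tara over 10.3 kb, 5 in arr over 13.03 kb, 4 in tna and 4 in E2f1. The 3 peaks of HmgZ formed the densest of these, with 87.9% of 4.65 kb covered. Between neighbours in a host, the gap had a median of 508 bp within a call (39 pairs, 196 to 2542 bp) and of 4.33 kb between calls (52 pairs, quartiles 2.17 and 10.3 kb). Calls with several internal parts had a median fold enrichment of 7.12 (quartiles 4.45 and 10.7), and calls with a single part 5.08 (3.78 and 7.44).

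Along the chromosomes the densest stretch was the start of the 2R arm. Within 1 Mb of the pericentric boundary 2R held 24 internal peaks, or 44.4 per Mb of allowed gene body, and 23 of these lay below 6 Mb of the chromosome, in Ugt50B3, TpnC4, stw, scaf and CG30440. The first Mb of the other arms held 0 to 3 peaks each. Beyond the first Mb the density was 5.01 per Mb on 2R, 3.88 on X, 3.13 on 3R, 2.96 on 3L and 2.84 on 2L. Of 117 windows of 1 Mb, 20 held no internal peak and 3, all on 2R, held 10 or more. Those at 5 to 6 Mb (11 peaks) and 8 to 9 Mb (12 peaks) from the boundary include the peaks of psq and shn, and of arr.

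**Figure D5:**
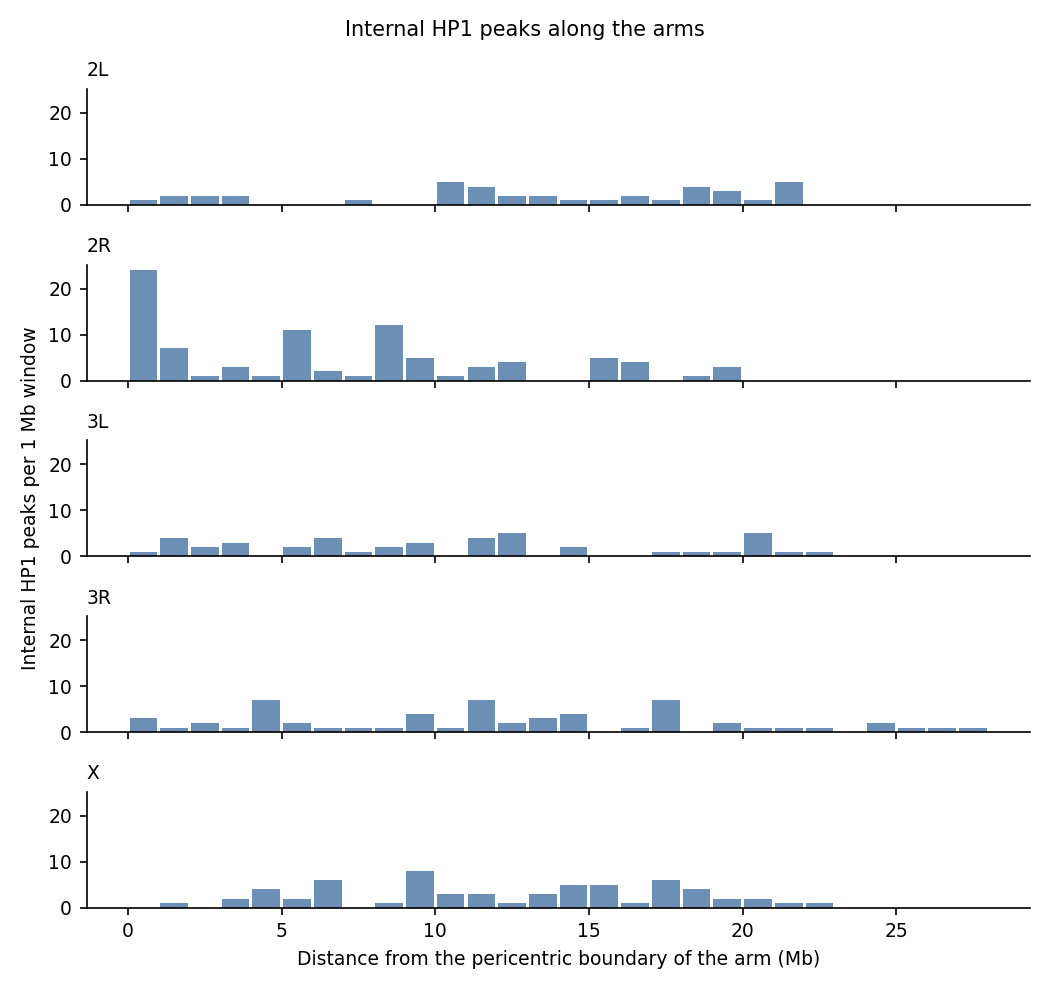
Number of internal HP1 peaks (y axis) in windows of 1 Mb by distance from the pericentric boundary (x axis, Mb), for each arm. The first window of 2R holds 24 peaks, and no window of the other arms holds more than 8.

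Few internal peaks touched a listed peak of H3K9me3, which the rule did not use. Of the 2245 H3K9me3 peaks only 137 lay on the arms, which limits how many HP1 peaks of any class could touch one. The share to be expected from their number was not computed. Of the 289, 11 touched an H3K9me3 peak (3.81%, exact 95% interval 1.92 to 6.71), against 6.86% of all arm HP1 peaks, 23 of 203 near gene ends (11.3%, 7.32 to 16.5) and 8 of 120 outside genes (6.67%, 2.92 to 12.7). The share was lower than near gene ends (Fisher's exact test, two-sided, adjusted p = 0.00358), a difference of -7.52 percentage points. The difference from peaks outside genes, -2.86 points, did not pass the threshold (Fisher's exact test, adjusted p = 0.208). Peaks are not replicates and parts of a call are counted separately, so these p-values describe the lists. Without 2R below 6 Mb the internal share was 6 of 266 (2.256%, 0.832 to 4.84), against 14 of 190 near gene ends, and the difference of -5.11 points passed (adjusted p = 0.0210 by Fisher's exact test). The call was lost where the overlap had to take up 50% of the HP1 peak (-3.05 points, adjusted p = 0.0703 by Fisher's exact test) or 50% of both peaks (-2.56 points, adjusted p = 0.162). It was also lost among peaks of 200 to 600 bp, with 2 of 212 internal (0.943%) and 4 of 116 near gene ends (3.45%, adjusted p = 0.190 by Fisher's exact test). At that width the difference from 5 of 87 peaks outside genes (5.75%) passed (adjusted p = 0.0476 by Fisher's exact test).

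All 11 touched H3K9me3 peaks of the HWT library. Of them, 5 lay in the stretch at the start of 2R, in stw, TpnC4 and Ugt50B3, with HP1 fold enrichments of 2.75 to 4.93. One of these, 267 bp in Ugt50B3, lay wholly under H3K9me3. The other 6 lay far from the boundary. In Egfr 51.04% of a 1005 bp peak was under H3K9me3, and in InR, the insulin receptor gene, 22.7% of a 739 bp peak of 10.2. In psq and Tis11 the shares were 13.9% and 25.1%. The remaining 2 were parts of the HmgZ call. In all, 2.62% of the bases of internal peaks were under H3K9me3.

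Of the internal peaks, 8 touched a background region (2.77%, exact 95% interval 1.20 to 5.38), against 2.45% of all arm HP1 peaks. The overlaps were 6 to 234 bp long, and lay in bowl, Gug, CG13073, CG18766, lncRNA:CR44833, ovo, Pde9 and vap. None of these 8 had a fold enrichment above 7.85.

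At the 200 bp limit, the closest internal peaks lay 206 bp from a gene end in CG30389 (fold enrichment 5.08), 217 bp in Su(var)205 and 221 bp in UBL3 (4.18). Just beyond it were peaks at 196 bp in ph-p, a Polycomb group gene (10.2), at 177 bp in Rip11 (9.77) and at 174 bp in Gmppb (4.11).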

How the data were processed

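Peak lists of H3K9me3, HP1 and anti-GFP background, deposited by the authors for the whole series, were analysed. Reads were handled with MACS2 2.1.2, bedtools 2.26, SAMtools 1.10 and Bowtie2 2.3.4.1 on dm6, per the submitters' processing notes. How calls were combined is not given in the sources used here. For every peak the deposited lists hold the authors' score, fold enrichment (a ratio) and −log10 q-value. These describe the call, and were used only to describe or rank peaks within the HP1 list.

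Arms were 2L below 22013558, 2R from 5400000, 3L below 22991510, 3R from 4600000 and X below 22638557. Gene bodies, without strand, were those of RefSeq on the assembly Release 6 plus ISO1 MT. Sequences were not used here. The members, lists and the rule for named genes were chosen with earlier results of these data known. That rule took hosts with 3 or more peaks, the leading peaks by fold and width, the leading hosts by bases and length, the largest clusters, the members at the limit, those touching another list, and any host in a gene list. Of 452 list names 2 gave no gene of their own. The counts of 1 list are not reported here. Shares carry exact binomial (Clopper-Pearson) 95% intervals, which cover counting alone. Fisher's p-values were adjusted by Benjamini-Hochberg over both comparisons, with a threshold of 0.05. Functions were tested on simulated data. Python 3.11.15, pandas 2.3.3, NumPy 2.4.6, SciPy 1.17.1 and matplotlib 3.10.9 were used.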

Additional observations from a re-analysis of the deposited data

How the results depend on the processing

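No paired analysis was possible because no value belongs to a single library, so no replicate could be left out either. Peak calls can depend on depth, which is unknown, and how far it limits the counts could not be measured. The planned share in the first 20% from the 5′ end could not be had without strand, and the share near either end took its place. Of 122 alternative values, 106 kept their direction and side of the threshold or stayed within the interval or 1.5 times of the reported value. Many of the 122 are gene-list shares judged against wide intervals, so their agreement says little. For long chromatin regulators the interval was 26.2 to 87.8%, and a fall from 6 of 10 to 4 of 10 at a distance of 1000 bp counted as kept. At a distance of 1000 bp from gene ends the host genes numbered 144, their median length was 30.7 kb and the outer share 29.7%. That distance itself leaves out positions near the ends of hosts, and the allowed share was not computed for it. With −log10 q of at least 10 the median fold enrichment was 6.26, and with a gap of 50 kb 55.0% of internal peaks were in clusters. The share touching H3K9me3 was 9.69% with arms 0.5 Mb longer, and 1.38% where an overlap had to take up 50% of the HP1 peak or 50% of both peaks. The difference from peaks near gene ends was -3.05 and -2.56 percentage points under these 2 overlaps and -2.50 for peaks of 200 to 600 bp, and did not pass (Fisher's exact test, adjusted p = 0.0703, 0.162 and 0.190). The difference from peaks outside genes passed Fisher's exact test with arms 0.5 Mb longer (-10.4, adjusted p = 0.00192), by the middle base (-4.10, adjusted p = 0.0467) and for peaks of 200 to 600 bp (-4.80, adjusted p = 0.0476). Over all alternatives the adjusted p of Fisher's exact test ran from 0.00186 to 0.190 against peaks near gene ends and from 0.00192 to 0.725 against peaks outside genes. The cause was not tested. The width limit, the outer position and the list counts without genes named earlier were chosen after seeing the data.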

Other observations

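Some hosts outside the gene lists act in growth and survival, and were picked after their values had been seen, so their number says nothing about this class of genes. The kinase gene Raf, of the EGFR pathway, held an internal HP1 peak of fold enrichment 6.39, and Socs36E, an inhibitor of JAK/STAT signalling, held 2 peaks of a call of 6.65. The insulin pathway genes InR and foxo had 10.2 and 3.74. For control of cell number there were Cdk4, E2f1, the ubiquitin ligase gene ago (3.67), the Myc antagonist gene Mnt (8.38) and the caspase inhibitor gene Diap1 (8.01). The sex determination gene dsx had 11.7 and the larval serum protein gene Lsp1gamma, only 2.57 kb long, 12.2.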
